A study of Homo sapiens with 24 samples.

Results

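The transcripts described are those of the electron-transfer flavoproteins and of the acyl-CoA dehydrogenases related to GCDH. They are 10 of the 60504 rows of the deposited expression table, taken by gene symbol: ETFA, ETFB, ETFDH, ACADM, ACADS, ACADVL, ACAD8, ACAD9, ACADSB and IVD. Cultured human cancer cells were transfected with small interfering RNA (siRNA) that targets GCDH (siGCDH) or with a control siRNA (siControl), and RNA was taken 48 h later. The cells were the melanoma line A375, the line SK-Hep1, which the series gives as liver cancer, and SKBR3, given as breast cancer. A375 was measured in 2 batches, so that 24 libraries fell into 8 groups of 3 triplicate wells. Each siRNA group is 1 line under 1 transfection, no untransfected cells were analysed here, and p-values measure the spread between wells, which may be technical.

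Acyl-CoA dehydrogenases are mitochondrial flavin enzymes that take a pair of electrons from a fatty or branched acyl group bound to coenzyme A. GCDH, the targeted gene, is the member of this family that acts in the breakdown of lysine and tryptophan. These enzymes hand their electrons to the electron-transfer flavoprotein, a dimer of the ETFA and ETFB products, and ETFDH passes them on to ubiquinone in the respiratory chain. The members therefore include the shared electron acceptor of GCDH and the enzymes that use the same acceptor.

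Values are TPM, a share of each library's transcripts corrected for their length, and they do not show how deeply a library was sequenced. A375 batch 1 was made with a kit for 3′ ends and the other libraries with a full-length kit, so levels were compared between lines only among the full-length libraries. Rankings, ratios, sums and shares across genes within A375 batch 1 rest on the 3′ kit and may not match those of the full-length kit. Differences are on the log2(TPM + 1) scale, which understates the change of low genes, and a difference was called when its adjusted p from limma was under 0.05.

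GCDH levels with siGCDH and siControl did not overlap in any line or batch. Its mean with siGCDH was 17.8% of siControl in A375 batch 2, 29.3% in SK-Hep1, 26.4% in the libraries labelled SKBR3 and 20.8% in A375 batch 1, where the fall did not pass (limma adjusted p = 0.118). Markers of the labelled cell types were uneven. TYR, the melanin-forming enzyme, was listed at 0 in the siControl libraries of A375, which held 3 of 7 melanocyte markers at 1 TPM or more. By mean, these were SOX10 (148 TPM in batch 1 and 457 TPM in batch 2), S100B (38.8 and 114 TPM) and MITF (11.2 and 11.6 TPM). SOX10 was listed at 0 with siControl in the other lines. SK-Hep1 was listed at 0 for ALB, APOA1, TTR and HNF4A, which define hepatocytes. SERPINA1 of the same list had means there of 9.59 TPM with siControl and 34.9 TPM with siGCDH, and AFP 0.69 and 1.99 TPM. The 10 breast epithelial markers summed to 65.5 to 68.5 TPM in the siControl libraries labelled SKBR3 and to 6360 to 6634 TPM in those of SK-Hep1, and ERBB2 was at 25.5 ± 2.23 TPM (SD, n = 3) in the former, so the breast label goes against its markers. SK-Hep1 in turn had KRT8 at 2317 ± 59.1 TPM and endothelial markers that summed to 0.09 to 0.19 TPM with siControl, and its name is used here as the labels give it. With siGCDH the same markers summed to 96.3 to 106 TPM in the libraries labelled SKBR3, 3444 to 3581 TPM in SK-Hep1 and 240 to 247 TPM in A375 batch 2, where siControl had 380 to 386 TPM, and the part of this shift in the members' values was not tested. In A375 batch 1, 4 lincRNA rows took 15.9 to 19.5% of all TPM with siControl and 31.2 to 34.4% with siGCDH.

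In A375 batch 2, both subunits of the electron-transfer flavoprotein and 3 acyl-CoA dehydrogenases, ACADS, ACAD9 and ACADSB, fell with siGCDH, and none of the members was called higher. Over all tested genes 15.7% were called lower there and 33.6% in either direction, beside these 5 of 10 members. In SK-Hep1, 5 members rose (ETFA, ETFB, ETFDH, ACADM and ACADVL) and 2 fell (ACADS and ACAD9), where 37.3% of all genes were called higher and 18.2% lower (55.5% in all). In the libraries labelled SKBR3, 7 members rose (ETFB, ETFDH, ACADM, ACADS, ACADVL, ACADSB and IVD) and 2 fell (ETFA and ACAD9), with 47.3% of all genes called higher and 14.7% lower (62.1% in all). Many genes were called in all 3 of these lines, and the members were chosen with earlier results of these data known. The counts therefore say little about the members as a set. In A375 batch 1, ETFA alone was called, lower, where 6.73% of all genes were called lower and 1.18% higher (7.91% in all). All 10 members passed the filter of a mean of 1 TPM in each comparison.

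**Figure D1:**
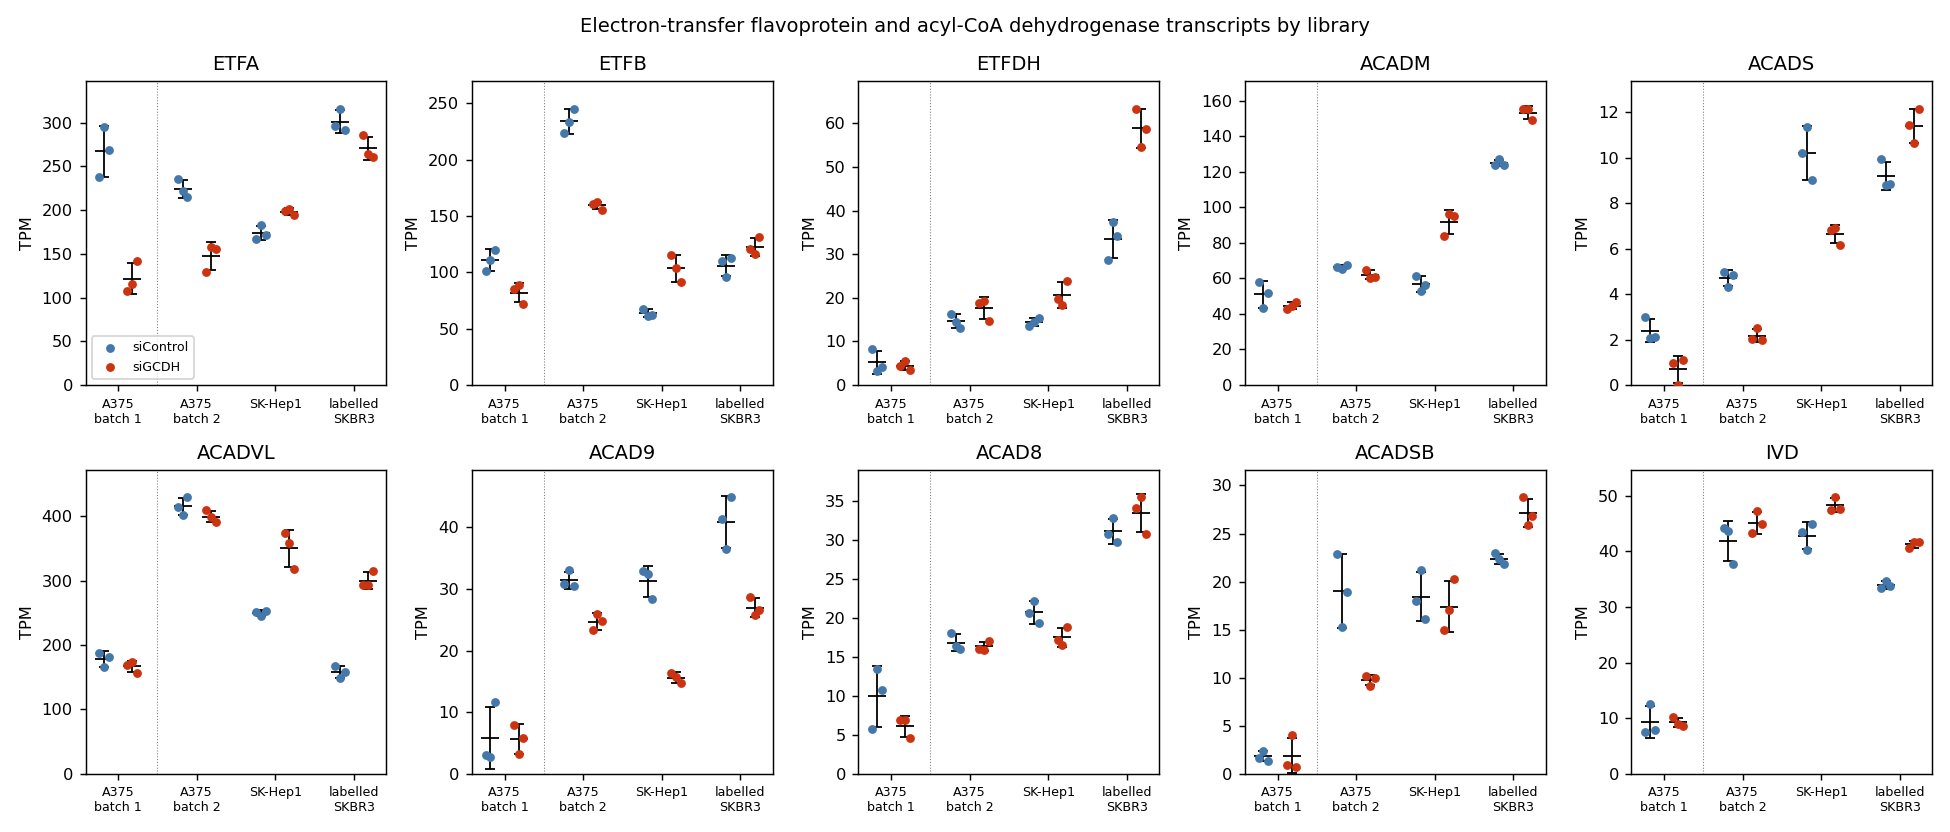
TPM of the 10 members (1 panel each, axis from 0) in the 24 libraries; points are libraries, the bar is the mean and the whiskers are 1 SD of 3 libraries, blue for siControl and red for siGCDH. The dotted line parts the 3′ kit of A375 batch 1 from the full-length kit. ETFA and ETFB are lower with siGCDH in both batches of A375, and ACAD9 is lower with siGCDH in all 3 full-length lines.

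ETFA encodes the alpha subunit of the electron-transfer flavoprotein, which holds most of its FAD site. The gene lies on the minus strand of chromosome 15 (hg38, 76215355 to 76311472). A375 batch 2 had 235, 222 and 215 TPM with siControl and 129, 158 and 155 TPM with siGCDH. Every siGCDH library was below every siControl library, and the log2 difference was -0.61 (SE 0.08, limma adjusted p = 0.00128). In A375 batch 1 the siControl libraries had 237, 295 and 268 TPM and the siGCDH libraries 107, 116 and 141 TPM. The groups again did not overlap, with a log2 difference of -1.13 (SE 0.14, limma adjusted p = 0.00579). That call was lost without the mean-variance trend (limma adjusted p = 0.0586), and without the large lincRNA rows the difference was -0.83 and called (limma adjusted p = 0.0257).

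The other lines did not show this fall of ETFA at that size. SK-Hep1 had 167, 183 and 171 TPM with siControl and 199, 202 and 195 TPM with siGCDH. All siGCDH libraries of SK-Hep1 were higher, by 0.19 (SE 0.05, limma adjusted p = 0.0106). With each library scaled to the same median, the difference in SK-Hep1 was 0.07 and no longer called (limma adjusted p = 0.276). The libraries labelled SKBR3 had 296, 316 and 292 TPM with siControl and 286, 264 and 261 TPM with siGCDH. There ETFA was lower without overlap, with a log2 difference of -0.16 (SE 0.05, limma adjusted p = 0.0267). Its size depended on the scaling: the difference was -0.40 after median scaling (limma adjusted p = 0.000393) and -0.06, not called, with quantile normalization (limma adjusted p = 0.366). It was also not called without a filter, without the trend or in the joint fit (limma adjusted p = 0.0516, 0.093 and 0.20). That call ended when siControl replicate 2, siGCDH replicate 2 or siGCDH replicate 3 was left out, with limma adjusted p of 0.0825, 0.0798 and 0.0830.

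ETFB encodes the beta subunit, which carries a bound AMP and the surface that meets the dehydrogenases. It lies on the minus strand of chromosome 19 (hg38, 51345169 to 51366418). Its values in A375 batch 2 were 223, 233 and 245 TPM with siControl and 161, 162 and 156 TPM with siGCDH. The siGCDH libraries lay close together and below all siControl libraries, with a log2 difference of -0.55 (SE 0.05, limma adjusted p = 0.000143). In A375 batch 1 ETFB had 101, 111 and 120 TPM with siControl and 85.1, 88.5 and 72.2 TPM with siGCDH. These groups did not overlap either, but the log2 difference of -0.43 did not pass (SE 0.13, limma adjusted p = 0.0955) and was -0.13 without the large lincRNA rows.

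ETFB went the other way in SK-Hep1. There it had 67.7, 61.4 and 61.7 TPM with siControl and 115, 104 and 91.1 TPM with siGCDH, and it rose by 0.69 (SE 0.09, limma adjusted p = 0.000418). The siControl libraries of SK-Hep1 held the lowest ETFB of the full-length libraries. The libraries labelled SKBR3 had 110, 95.7 and 113 TPM with siControl and 121, 116 and 131 TPM with siGCDH. The difference was 0.21 (SE 0.08, limma adjusted p = 0.0421), the smallest called rise among the members there. After median scaling it was -0.03 and not called (limma adjusted p = 0.757), and it was no longer called when siControl replicate 1, siControl replicate 2, siGCDH replicate 1 or siGCDH replicate 3 was left out (limma adjusted p = 0.0592, 0.109, 0.0784 and 0.127).

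Because both subunits fell in A375 batch 2, the promoters of ETFA and ETFB are shown, as 250 bases before and 50 after the annotated start (RefSeq, GRCh38.p14, minus strand, chr15:76311420-76311719 and chr19:51366339-51366638). ETFB has a second RefSeq start, whose window held no match to the motifs searched. Capitals mark matches, on either strand, to the core of the antioxidant response element (TGACNNNGC), which NRF2 binds with a small MAF partner, and to the site of nuclear respiratory factor 1.
ETFA: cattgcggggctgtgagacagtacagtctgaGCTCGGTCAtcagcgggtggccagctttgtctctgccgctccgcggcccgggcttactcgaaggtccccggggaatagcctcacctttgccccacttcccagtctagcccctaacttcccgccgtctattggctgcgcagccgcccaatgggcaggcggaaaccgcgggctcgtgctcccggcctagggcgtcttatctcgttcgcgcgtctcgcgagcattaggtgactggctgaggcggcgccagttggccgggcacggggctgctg
ETFB: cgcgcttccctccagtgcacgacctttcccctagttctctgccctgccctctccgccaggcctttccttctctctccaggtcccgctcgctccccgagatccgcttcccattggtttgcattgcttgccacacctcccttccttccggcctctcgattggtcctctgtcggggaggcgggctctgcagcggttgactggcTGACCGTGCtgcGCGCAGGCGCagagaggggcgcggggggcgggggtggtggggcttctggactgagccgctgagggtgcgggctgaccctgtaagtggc
Each of these windows holds 1 match to TGACNNNGC, in ETFA as its reverse complement, and the ETFB window also holds 1 match to the nuclear respiratory factor 1 site, which does not overlap the other. The first motif is in 13.35% of the 35116 promoter windows of this length and the second in 5.78%. Among the 11 windows found for 9 members, a window of ACADVL also held TGACNNNGC. The windows of ACADS and ACADSB, which fell in A375 batch 2 too, held no match to any motif searched. A match in letters is a description of the window and not a measured binding site.

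The ratio of ETFA to ETFB within a library does not depend on how that library was scaled. The ratio in A375 batch 2 was 1.05, 0.950 and 0.878 with siControl and 0.802, 0.974 and 0.998 with siGCDH, so the groups overlapped (log2 difference -0.06, exact two-sided permutation p = 0.7). In SK-Hep1 it was 2.46, 2.98 and 2.78 with siControl and 1.72, 1.95 and 2.13 with siGCDH. In the libraries labelled SKBR3 it was 2.7, 3.30 and 2.59 with siControl and 2.37, 2.28 and 1.99 with siGCDH. In both of these lines every siGCDH library had less ETFA per ETFB than every siControl library, with log2 differences of -0.50 and -0.37. A375 batch 1 had ratios of 2.35, 2.65 and 2.24 with siControl and 1.26, 1.31 and 1.96 with siGCDH, a log2 difference of -0.70 without overlap. In these 3 comparisons the exact permutation p was 0.1, the lowest value possible here, and 0.133 after adjustment over 4. Among the full-length lines ETFA and ETFB were near equal in TPM in A375 batch 2 alone.

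**Figure D2:**
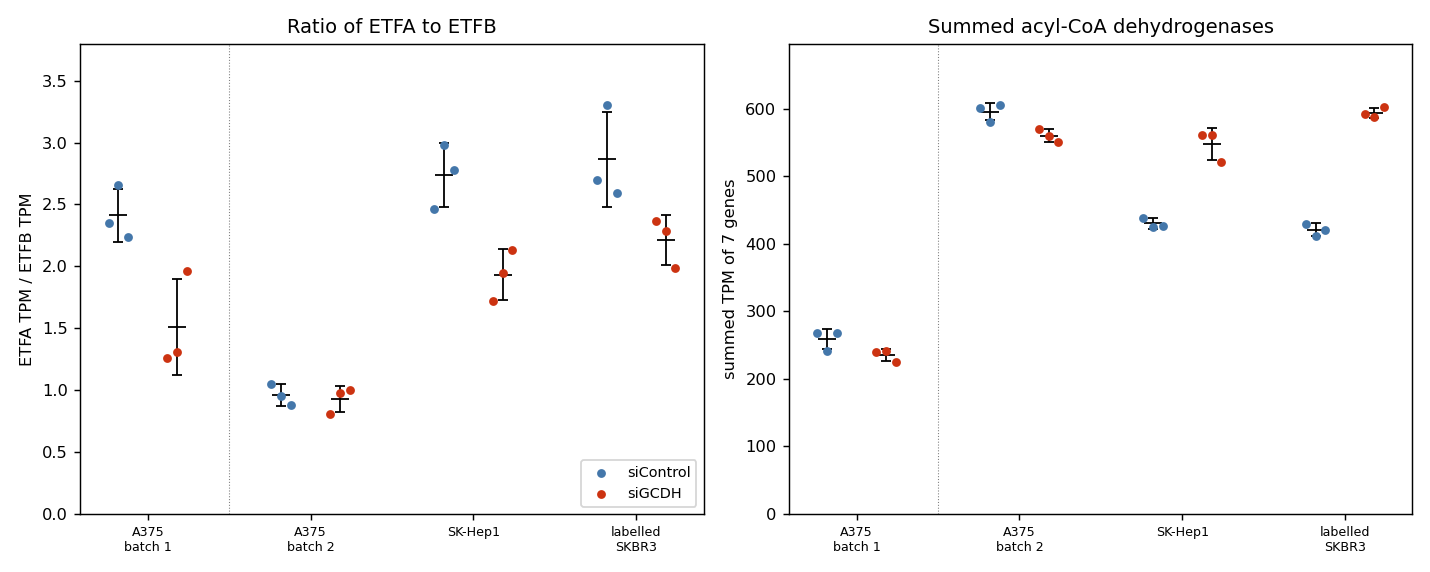
Left, TPM of ETFA divided by that of ETFB in each library; right, the summed TPM of the 7 acyl-CoA dehydrogenases; points are libraries, bars are means with 1 SD of 3 libraries, blue for siControl and red for siGCDH, and the dotted line parts the 3′ kit from the full-length kit. The ratio is near 1 in A375 batch 2 and between 1.72 and 3.30 in the other full-length libraries; the sum is 520 TPM or more in the siGCDH libraries of SK-Hep1 and of the line labelled SKBR3 and 439 TPM or less in their siControl libraries.

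ETFDH encodes the membrane enzyme that takes the electrons from the flavoprotein to ubiquinone. It lies on the plus strand of chromosome 4 (hg38, 158672125 to 158709623). The libraries labelled SKBR3 had 28.7, 37.3 and 34.2 TPM with siControl and 63.4, 54.5 and 58.7 TPM with siGCDH. All siGCDH libraries were higher, and the difference of 0.80 (SE 0.10, limma adjusted p = 0.000438) remained called after median scaling. SK-Hep1 had 13.4, 14.5 and 15.3 TPM with siControl and 19.7, 18.3 and 23.9 TPM with siGCDH, higher by 0.48 (SE 0.11, limma adjusted p = 0.0067). In a joint fit of all 24 libraries that rise was not called (limma adjusted p = 0.0878). A375 batch 2 had 16.3, 14.4 and 13.2 TPM with siControl and 18.9, 19.3 and 14.7 TPM with siGCDH. Those groups overlapped, and the difference of 0.25 did not pass (95% interval -0.05 to 0.54, limma adjusted p = 0.171).

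ETFDH shares 490 exonic bases with PPID, a gene on the opposite strand, or 10.91% of its exonic length. The strand setting of the authors' counting is not given in the sources used here, so reads of the pair may not be separated there. PPID went from 30.4 ± 3.03 to 43.6 ± 2.78 TPM in SK-Hep1 and from 74.9 ± 3.40 to 83.1 ± 8.49 TPM in the libraries labelled SKBR3 (SD, n = 3), and its part in the ETFDH values was not tested.

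ACADVL, the very long-chain enzyme that starts the oxidation of long fatty acids (hg38 chromosome 17, 7217125 to 7225273, plus strand), was the most abundant acyl-CoA dehydrogenase in every group. ACADVL had 168, 149 and 158 TPM with siControl and 293, 293 and 315 TPM with siGCDH in the libraries labelled SKBR3. These groups were far apart, and the difference of 0.92 (SE 0.05, limma adjusted p = 1.35e-05) was the largest rise of a member there. In SK-Hep1 it had 252, 244 and 253 TPM with siControl and 374, 359 and 318 TPM with siGCDH, a rise of 0.48 (SE 0.06, limma adjusted p = 0.000389). A375 batch 2 had 414, 403 and 430 TPM with siControl and 409, 399 and 391 TPM with siGCDH. Those groups overlapped, and the 95% interval of the difference, from -0.14 to 0.03, lies below the rises of the other lines.

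ACADM, the medium-chain enzyme (hg38 chromosome 1, 75724347 to 75787575, plus strand), also rose in SK-Hep1. It had 61.6, 53.0 and 56.0 TPM there with siControl and 83.7, 96.1 and 95.1 TPM with siGCDH, and rose by 0.68 (SE 0.08, limma adjusted p = 0.000233). Its values were 124, 127 and 124 TPM with siControl and 155, 155 and 149 TPM with siGCDH in the libraries labelled SKBR3. The difference of 0.29 (SE 0.04, limma adjusted p = 0.000494) was the same as the median of all tested genes in that comparison, 0.29, and after median scaling it was 0.05 and not called (limma adjusted p = 0.287). A375 batch 2 had 66.4, 65.0 and 67.4 TPM with siControl and 64.9, 60.01 and 61.0 TPM with siGCDH. The siGCDH libraries there were all lower, by an amount that did not pass (log2 difference -0.10, limma adjusted p = 0.20).

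ACADS, the short-chain enzyme (hg38 chromosome 12, 120725735 to 120740008, plus strand), was the least abundant member in each group of the full-length kit. A375 batch 2 had 4.97, 4.31 and 4.86 TPM with siControl and 2.03, 2.49 and 1.97 TPM with siGCDH. It fell to 45.9% of its siControl mean, a log2 difference of -0.85 (SE 0.15, limma adjusted p = 0.00398). SK-Hep1 had 10.2, 11.4 and 9.0 TPM with siControl and 6.84, 6.89 and 6.17 TPM with siGCDH, a fall with a log2 difference of -0.55 (SE 0.11, limma adjusted p = 0.00422). ACADS had 9.93, 8.81 and 8.85 TPM with siControl and 11.4, 10.7 and 12.2 TPM with siGCDH in the libraries labelled SKBR3. Its rise of 0.28 there was called (limma adjusted p = 0.0306), but quantile normalization gave -0.12 (limma adjusted p = 0.314), and the call ended when siControl replicate 2, siControl replicate 3, siGCDH replicate 1 or siGCDH replicate 3 was left out (limma adjusted p between 0.0718 and 0.0946).

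ACAD9 encodes a dehydrogenase with a further role as an assembly factor of respiratory complex I (hg38 chromosome 3, 128879596 to 128916067, plus strand). It was the single member called lower in all 3 full-length lines, and it stayed so after median scaling and quantile normalization. SK-Hep1 had 33.0, 32.4 and 28.4 TPM with siControl and 16.4, 15.7 and 14.7 TPM with siGCDH. This was the largest fall of a member in SK-Hep1 (log2 difference -0.96, SE 0.08, limma adjusted p = 6.19e-05). The libraries labelled SKBR3 had 41.4, 36.4 and 44.9 TPM with siControl and 28.7, 25.7 and 26.5 TPM with siGCDH (log2 difference -0.58, SE 0.09, limma adjusted p = 0.000977). A375 batch 2 had 30.8, 33.0 and 30.5 TPM with siControl and 23.3, 26.0 and 24.8 TPM with siGCDH, the smallest of the 3 falls (log2 difference -0.34, SE 0.07, limma adjusted p = 0.00911). None of these groups overlapped. The joint fit of all 24 libraries did not call the fall in A375 batch 2 (limma adjusted p = 0.556) or in the libraries labelled SKBR3 (limma adjusted p = 0.152). A375 batch 1 had only 3.07, 2.69 and 11.6 TPM with siControl and 7.94, 3.20 and 5.80 TPM with siGCDH, overlapping groups with a 95% interval of the difference from -1.06 to 1.35. KIAA1257, on the opposite strand, shares 454 exonic bases with ACAD9 and had a mean of at most 1.73 TPM in any group.

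The ACAD9 promoter is shown because its transcript fell in all 3 full-length lines (RefSeq, GRCh38.p14, plus strand, chr3:128879370-128879669). Capitals mark matches to the nuclear respiratory factor 1 site (either strand) and to the palindromic cyclic AMP response element (TGACGTCA).
ACAD9: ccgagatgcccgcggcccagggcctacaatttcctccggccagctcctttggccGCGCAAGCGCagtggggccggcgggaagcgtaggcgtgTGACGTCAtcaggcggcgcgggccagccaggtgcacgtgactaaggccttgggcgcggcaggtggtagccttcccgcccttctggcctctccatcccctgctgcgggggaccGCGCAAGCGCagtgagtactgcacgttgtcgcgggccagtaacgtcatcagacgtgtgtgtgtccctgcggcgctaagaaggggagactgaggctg
The window holds 2 matches to the first motif and 1 to the second, with no overlap, and TGACGTCA is in 1.85% of promoter windows. No member's window held the letters TCAAGGTCA, the site of the estrogen-related receptors (0.35% of windows), or TTGCATCA, an amino acid response element core (0.87% of windows), which says only that these letters are not there.

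The remaining 3 enzymes act on branched chains: ACADSB in the breakdown of isoleucine, ACAD8 in that of valine and IVD in that of leucine. They lie on the plus strands of chromosomes 10 (hg38, 123008979 to 123058311), 11 (134253495 to 134265855) and 15 (40405795 to 40435947). ACADSB had 22.9, 15.3 and 18.9 TPM with siControl and 10.2, 9.13 and 9.93 TPM with siGCDH in A375 batch 2. The siControl libraries varied more than the siGCDH libraries but all lay above them, and the log2 difference was -0.88 (SE 0.14, limma adjusted p = 0.00298), a fall to 51.2% of the siControl mean. In SK-Hep1 it had 17.95, 21.2 and 16.1 TPM with siControl and 14.9, 17.0 and 20.3 TPM with siGCDH, overlapping groups (log2 difference -0.08, limma adjusted p = 0.632). The libraries labelled SKBR3 had 22.9, 22.3 and 21.8 TPM with siControl and 28.8, 25.9 and 26.9 TPM with siGCDH. That rise of 0.27 (limma adjusted p = 0.00928) was 0.04 after median scaling and not called (limma adjusted p = 0.64).

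IVD had 44.2, 43.7 and 37.7 TPM with siControl and 43.3, 47.2 and 45.0 TPM with siGCDH in A375 batch 2, with overlap and a difference of 0.11 (limma adjusted p = 0.32). In SK-Hep1 it had 43.4, 40.2 and 44.9 TPM with siControl and 47.5, 49.7 and 47.7 TPM with siGCDH. All siGCDH libraries were higher there, and the difference of 0.17 was just outside the threshold (limma adjusted p = 0.0508). It had 33.4, 34.7 and 33.8 TPM with siControl and 40.6, 41.7 and 41.7 TPM with siGCDH in the libraries labelled SKBR3. IVD rose there by 0.28 (limma adjusted p = 0.0027), but by 0.04 and without a call after median scaling (limma adjusted p = 0.524).

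ACAD8 was called in none of the within-line comparisons. It had 15.97 to 18.03 TPM with siControl and 15.9 to 17.1 TPM with siGCDH in A375 batch 2, 19.3 to 22.2 and 16.5 to 18.9 TPM in SK-Hep1, and 29.7 to 32.8 and 30.7 to 35.5 TPM in the libraries labelled SKBR3. Only in SK-Hep1 were the groups apart, lower with siGCDH and just outside the threshold (log2 difference -0.23, limma adjusted p = 0.052).

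In A375 batch 1 the 8 members other than the flavoprotein subunits were not called. ACADVL had 188, 165 and 182 TPM with siControl and 169.63, 174 and 157 TPM with siGCDH, and ACADM had 57.9, 43.2 and 51.9 TPM and then 42.75, 44.5 and 46.9 TPM, both with overlap. ACADS had 2.98, 2.09 and 2.11 TPM with siControl and 0.98, 0 and 1.1 TPM with siGCDH, groups without overlap whose difference of -1.07 did not pass (SE 0.44, limma adjusted p = 0.186). ETFDH, ACADSB, ACAD8 and IVD lay between 0.71 and 13.4 TPM in all 6 libraries, with overlapping groups.

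**Figure D3:**
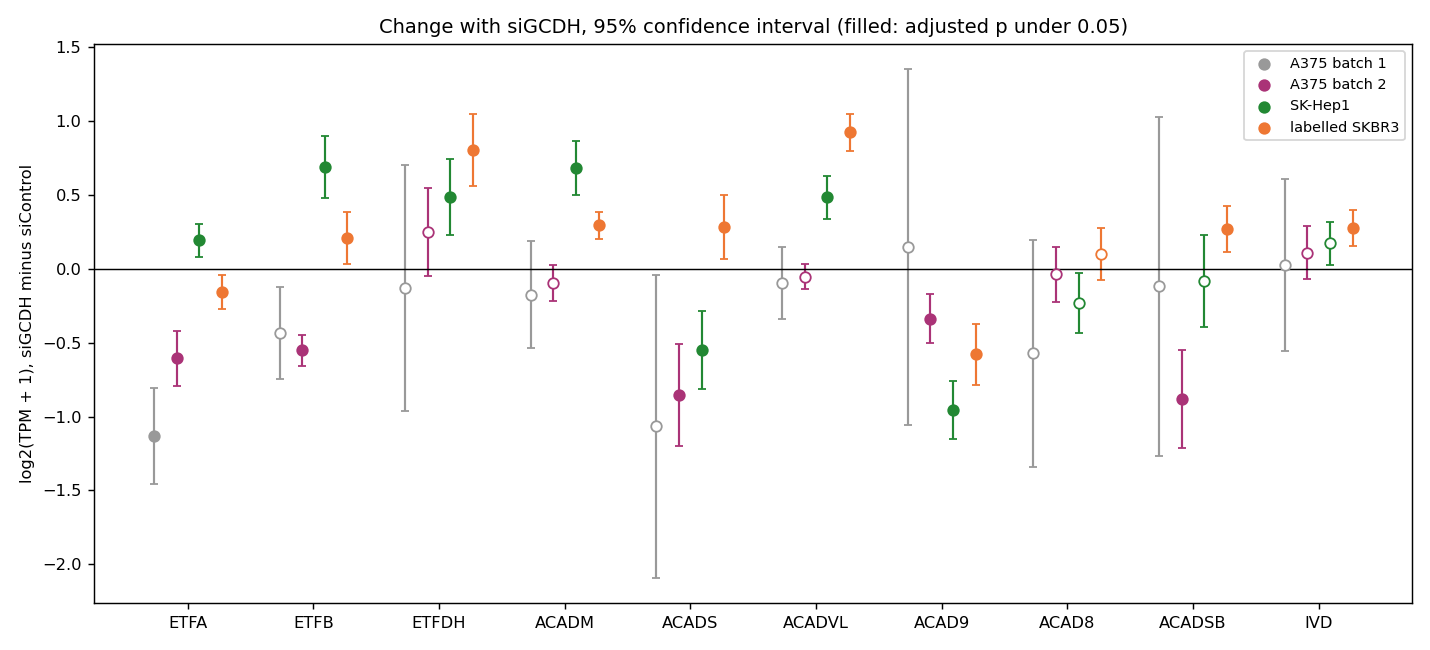
Difference of mean log2(TPM + 1), siGCDH minus siControl, for each member in A375 batch 1, A375 batch 2, SK-Hep1 and the line labelled SKBR3; whiskers are 95% confidence intervals from limma and filled points have an adjusted p under 0.05. The filled points of A375 lie below 0, from -0.34 to -1.13, and the SK-Hep1 and SKBR3 points lie on both sides.

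Some of these counts moved with the scaling of the libraries. The median difference of all tested genes was 0.02 in A375 batch 2, 0.18 in SK-Hep1, 0.29 in the libraries labelled SKBR3 and -0.20 in A375 batch 1. Beside these, the median of the 10 members was -0.22 in A375 batch 2, 0.18 in SK-Hep1, 0.27 in the libraries labelled SKBR3 and -0.15 in A375 batch 1. After median scaling, the libraries labelled SKBR3 had 2 members higher (ETFDH and ACADVL) and 2 lower (ETFA and ACAD9), whereas A375 batch 2 still had its 5 falls. Of all genes, that scaling called 5043 higher and 4171 lower of 16494 in the libraries labelled SKBR3. In A375 batch 2 it called 2680 higher and 2452 lower of 15185. With quantile normalization the libraries labelled SKBR3 had 3 members higher (ETFDH, ACADM and ACADVL) and 1 lower (ACAD9), beside 4238 genes higher and 4309 lower of 16494. In SK-Hep1 both settings ended the call of ETFA and called ACAD8 lower. Median scaling and quantile normalization called 4200 and 3948 of 14557 genes higher there, and 3341 and 3421 lower.

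**Figure D4:**
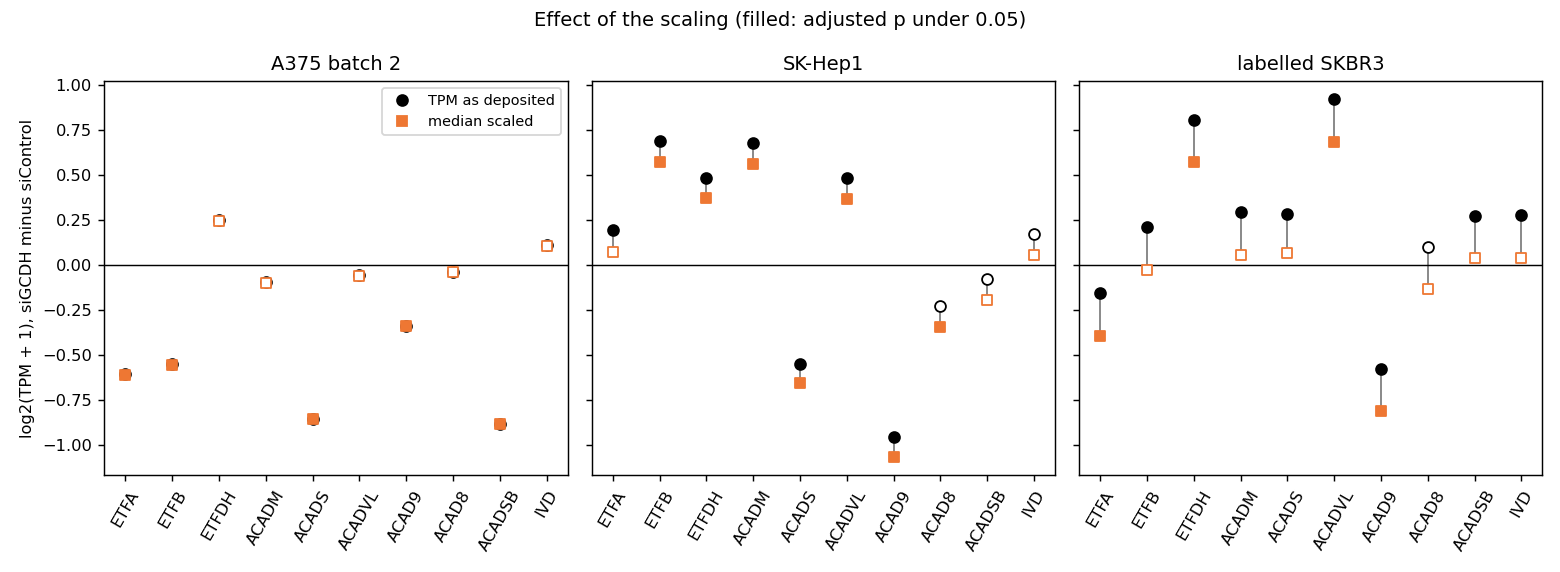
Difference of mean log2(TPM + 1), siGCDH minus siControl, for each member in the 3 full-length lines, with TPM as deposited (black circles) and after scaling each library to the same median over genes of at least 5 TPM (orange squares); filled symbols have an adjusted p under 0.05. The 2 symbols lie on each other in A375 batch 2, and every orange square lies below its circle in SK-Hep1 and in the line labelled SKBR3.

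Groups without overlap were common in all genes. Of the members 6 had groups that did not overlap in A375 batch 2, where 48.4% of all tested genes did so. The count was 9 members in SK-Hep1 (63.1% of genes), 9 in the libraries labelled SKBR3 (68.1%) and 3 in A375 batch 1 (30.8%).

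The 7 acyl-CoA dehydrogenases were also summed within each library. The sum in A375 batch 2 was 601, 581 and 605 TPM with siControl and 569, 560 and 550 TPM with siGCDH. SK-Hep1 had 439, 425 and 426 TPM with siControl and 560, 561 and 520 TPM with siGCDH. It was 430, 411 and 421 TPM with siControl and 592, 588 and 602 TPM with siGCDH in the libraries labelled SKBR3. The sum was thus lower without overlap in A375 batch 2, by a small amount (log2 difference -0.09), and higher without overlap in SK-Hep1 (0.35) and in the libraries labelled SKBR3 (0.50). Median scaling took the last 2 differences to 0.23 and 0.26. A375 batch 1 had 267, 242 and 267 TPM with siControl and 239, 241 and 225 TPM with siGCDH (log2 difference -0.14), a direction that turned to 0.07 after median scaling. Each exact two-sided permutation p was 0.1, also after adjustment over 4, and 0.1 is the floor of this design.

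ACADVL was the largest part of the sum in each group. Its share was 69.7 ± 1.12% with siControl and 71.4 ± 0.475% with siGCDH in A375 batch 2 (SD, n = 3). In SK-Hep1 it went from 58.1 ± 1.01% to 63.9 ± 2.84%, and in the libraries labelled SKBR3 from 37.6 ± 1.39% to 50.6 ± 1.53%, the largest shift of a share. ACADM held 29.7 ± 1.09% of the sum in the siControl libraries labelled SKBR3 and 11.1 ± 0.0836% in those of A375 batch 2. The share of ACAD9 went from 7.26 ± 0.527% to 2.85 ± 0.0636% in SK-Hep1 and from 9.72 ± 0.904% to 4.54 ± 0.265% in the libraries labelled SKBR3. These shares are descriptions without a test.

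**Figure D5:**
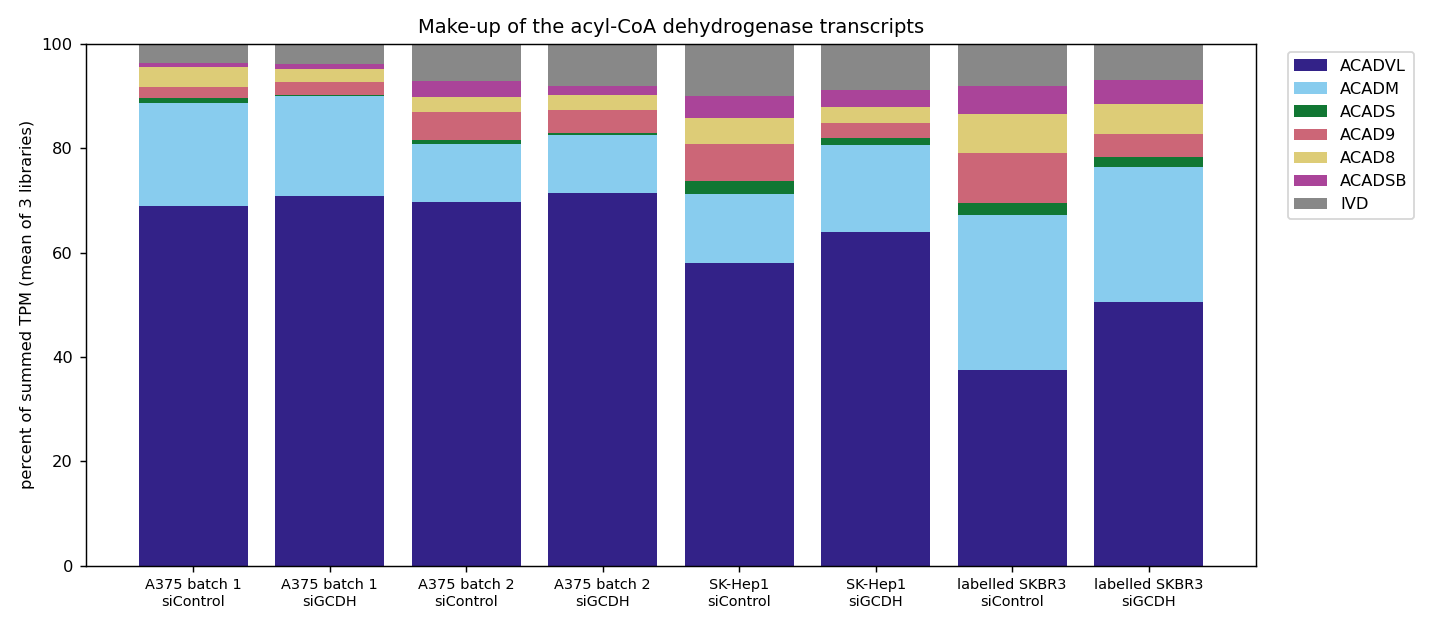
Share of each of the 7 acyl-CoA dehydrogenases in their summed TPM (percent, mean of 3 libraries) in the 8 groups. ACADVL is the largest segment in each bar, and in the siControl libraries labelled SKBR3 it is 37.6% with ACADM at 29.7%.

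Whether the effect of siGCDH differed between lines was tested directly. The effect on GCDH itself differed for A375 batch 2 minus SK-Hep1 (-0.74, SE 0.15, limma adjusted p = 0.00239). It was not called for A375 batch 2 (-0.43) or SK-Hep1 (0.30) minus the libraries labelled SKBR3 (limma adjusted p = 0.076 and 0.262). With siControl, GCDH was at 20.9 TPM in A375 batch 2, 9.41 in SK-Hep1 and 22.5 in the libraries labelled SKBR3. The part of this in the members' differences was not tested. Between A375 batch 2 and SK-Hep1, 6 members differed, 5 toward lower values in A375 (ETFA, ETFB, ACADM, ACADVL and ACADSB) and ACAD9 toward higher, where 28.8% of all genes were called lower and 17.4% higher (46.2% in all). ETFB differed most, by -1.24 (SE 0.11, limma adjusted p = 3.9e-06). Between A375 batch 2 and the libraries labelled SKBR3, 7 members differed, all toward lower values in A375 (ETFA, ETFB, ETFDH, ACADM, ACADS, ACADVL and ACADSB), where 36.8% of all genes were called lower and 14.5% higher (51.4% in all). The differences ran from -0.39 for ACADM to -1.15 for ACADSB. After median scaling, ETFA (-0.22, limma adjusted p = 0.123) and ETFDH (-0.33, limma adjusted p = 0.15) lost their calls in that comparison, and ACAD9 was called higher in A375 (0.46, limma adjusted p = 0.00672). Quantile normalization also ended the call of ETFDH (limma adjusted p = 0.0514) and called ACAD9 (0.45, limma adjusted p = 0.00971). For A375 batch 2 minus SK-Hep1, both settings added ACAD8 as higher (limma adjusted p = 0.0364 and 0.0248).

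SK-Hep1 and the libraries labelled SKBR3 also differed from each other in 7 members, with ETFA, ETFB and ACADM more positive in SK-Hep1 (14.5% of all genes called so) and ACADS, ACADVL, ACAD9 and ACAD8 less so (25.0%, and 39.5% in all). ACADS differed most, by -0.83 (SE 0.13, limma adjusted p = 0.000654). The calls of ACAD9 and ACAD8 were at the edge (limma adjusted p = 0.0304 and 0.0333). Both were lost after median scaling (limma adjusted p = 0.13 and 0.164), quantile normalization (0.125 and 0.0985) and in the joint fit of all libraries (0.642 and 0.458). The call of ETFA was lost with quantile normalization (limma adjusted p = 0.0832) and in the joint fit (0.0737). Leaving out 1 library moved the adjusted p of ACAD9 past the threshold for SK-Hep1 siControl replicate 1 or 2, SK-Hep1 siGCDH replicate 3, SKBR3 siControl replicate 2 and SKBR3 siGCDH replicate 1 (limma adjusted p from 0.0652 to 0.0712). ACAD8 lost its call without SK-Hep1 siControl replicate 1 or 2, SK-Hep1 siGCDH replicate 1 or 2, SKBR3 siControl replicate 1 or 3, or SKBR3 siGCDH replicate 1 or 2 (limma adjusted p from 0.0559 to 0.0778). The comparisons that involve A375 batch 2 share its libraries, so their results are not independent.

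Between the batches of A375, no member's effect differed with limma at an adjusted p under 0.05, where 5.23% of all genes were called, 4.78% higher and 0.447% lower. The closest was ETFA, with a difference of 0.53 for batch 2 minus batch 1 (95% interval 0.16 to 0.89, limma adjusted p = 0.10). Without the batch 1 siGCDH replicate 3 it was 0.64 and called (limma adjusted p = 0.0332). For most other members the interval was wide, such as -1.73 to 0.77 for ACAD9, so like effects are not shown by this.

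The order of the members in siControl cells also differed between lines. In A375 batch 2 ACADVL (415 ± 13.4 TPM) was highest, followed by ETFB (234 ± 10.9) and ETFA (224 ± 9.996), whose libraries overlapped, and then by ACADM, IVD and ACAD9 in steps without overlap. ACADSB, ACAD8 and ETFDH followed, each overlapping the next, and ACADS was lowest (4.71 ± 0.354). In SK-Hep1 ACADVL (250 ± 4.45) was again first and ETFA (174 ± 8.21) second, and ETFB (63.6 ± 3.57) overlapped ACADM (56.9 ± 4.35). In the libraries labelled SKBR3 ETFA (301 ± 12.9) was first, ACADVL (158 ± 9.39) second and ACADM (125 ± 1.89) next, and IVD, ETFDH and ACAD8 overlapped in turn.

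Tested among the 9 siControl libraries of the full-length kit, 6 members differed between A375 batch 2 and SK-Hep1, where 73.5% of all genes did, 45.0% higher and 28.6% lower in A375. ETFB was higher in A375 by 1.86 (SE 0.07, limma adjusted p = 1.84e-08), ACADVL by 0.73, ETFA by 0.37 and ACADM by 0.22, and ACADS and ACAD8 were lower by differences of -0.97 and -0.28. The ACADM difference was lost after median scaling (limma adjusted p = 0.595). Against the libraries labelled SKBR3, 9 members differed from A375 batch 2 (74.6% of all genes, 34.4% higher and 40.2% lower), with ETFB (1.14), ACADVL (1.39) and IVD (0.29) higher in A375 and the other 6 lower, down to -1.13 for ETFDH. Between SK-Hep1 and those libraries 8 differed (77.4% of all genes, 28.5% higher and 48.9% lower), with ACADVL and IVD higher in SK-Hep1 and 6 lower. Each line was 1 set of wells, so the line and its set cannot be told apart in these comparisons.

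By the rule that takes the smallest root mean square difference of group means over the 6 full-length groups, each centred on its own mean, the genes most like ETFA among 11744 were ZNF584-DT (0.08 on the log2 scale), UBL4A (0.09) and COX5A (0.10), a subunit of cytochrome c oxidase. Those most like ETFB were ZNG1A (0.13), RPS27P4 (0.13) and PTS (0.15). Those most like ETFDH were PNN (0.09), CEP162 (0.11) and GLCCI1 (0.11). The match rests on 6 groups, and nothing is drawn from the names.

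Genes around the members were counted in 7 lists, beside shares of all tested genes called higher and lower of 17.9% and 15.7% in A375 batch 2, 37.3% and 18.2% in SK-Hep1, 47.3% and 14.7% in the libraries labelled SKBR3 and 1.18% and 6.73% in A375 batch 1. Of 19 fatty acid oxidation genes, 19 were tested in A375 batch 2, where 2 were higher and 8 lower (median -0.10, all genes 0.02). Among the falls were CPT2 and CPT1A, carnitine palmitoyltransferases that help to bring long fatty acids into mitochondria. CPT2 went from 26.1 ± 1.73 to 14.1 ± 1.09 TPM and CPT1A from 17.1 ± 1.34 to 9.25 ± 0.786 TPM (SD, n = 3, limma adjusted p = 0.00042 and 0.000844). The list also holds CPT1B and CPT1C, whose values in A375 batch 2 are not given here. ACSL1 rose there from 24.5 ± 1.56 to 35.8 ± 0.914 TPM (limma adjusted p = 0.00119). In SK-Hep1 8 were higher and 3 lower of 17 (median 0.14, all genes 0.18), led by ECI2, an isomerase for unsaturated fatty acids, from 156 ± 0.654 to 381 ± 5.56 TPM (limma adjusted p = 5.58e-07). ACSL3 fell there from 151 ± 9.75 to 42.7 ± 3.08 TPM (limma adjusted p = 1.62e-06). In the libraries labelled SKBR3 8 were higher and 4 lower of 18 (median 0.16, all genes 0.29), and in A375 batch 1 none was higher and 2 lower of 16. ACSL3 also fell in the libraries labelled SKBR3, from 51.8 ± 2.24 to 27.2 ± 0.325 TPM (limma adjusted p = 1.76e-05). CPT1B rose in them from 16.7 ± 2.42 to 43.5 ± 6.22 TPM (limma adjusted p = 0.000129).

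Among 7 other acyl-CoA dehydrogenases and oxidases, a list that holds GCDH itself, A375 batch 2 had 2 higher and 3 lower of 6, SK-Hep1 3 higher and 1 lower of 7, the libraries labelled SKBR3 2 higher and 1 lower of 6, and A375 batch 1 none called of 6. The 1 lower gene in SK-Hep1 and in the libraries labelled SKBR3 was GCDH, the siRNA target. GCDH was also 1 of the 3 lower in A375 batch 2, so these lower counts include the knockdown itself. ACAD11, an acyl-CoA dehydrogenase outside the members, rose from 37.7 ± 1.53 to 73.7 ± 5.03 TPM in the libraries labelled SKBR3 (limma adjusted p = 2.59e-05). It also rose in SK-Hep1, from 29.9 ± 0.946 to 40.9 ± 3.57 TPM (limma adjusted p = 0.00195). Of 19 genes of branched-chain amino acid breakdown, all tested, 1 was higher and 6 lower in A375 batch 2 (median -0.21, all genes 0.02), 5 higher and 6 lower in SK-Hep1 (median -0.02, all genes 0.18), 5 higher and 6 lower in the libraries labelled SKBR3 (median 0.09, all genes 0.29), and 2 lower in A375 batch 1 (median -0.58, all genes -0.20). BCAT1, which removes the amino group in the cytosol, fell in SK-Hep1 from 21.8 ± 2.92 to 3.02 ± 0.803 TPM (limma adjusted p = 1.41e-05). It also fell in the libraries labelled SKBR3, from 30.7 ± 2.99 to 10.1 ± 0.621 TPM (limma adjusted p = 1.6e-05).

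The 6 complex I assembly partners of ACAD9 were all tested, against the same shares of all genes. Of these, A375 batch 2 had 2 higher and 1 lower, SK-Hep1 4 higher and 1 lower, the libraries labelled SKBR3 1 higher and 4 lower, and A375 batch 1 had 1 lower. TIMMDC1, a membrane partner in this assembly, fell in A375 batch 2 from 254 ± 2.24 to 124 ± 1.89 TPM and in batch 1 from 243 ± 10.1 to 123 ± 10.3 TPM (limma adjusted p = 3.54e-06 and 0.00421), and rose in SK-Hep1 from 98.1 ± 1.79 to 147 ± 7.02 TPM (limma adjusted p = 6.05e-05). It also rose in the libraries labelled SKBR3, from 172 ± 6.71 to 223 ± 3.99 TPM (limma adjusted p = 0.000203).

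Of 8 genes of FAD supply and flavoprotein care, A375 batch 2 had 1 higher of 5 tested, SK-Hep1 2 higher and 1 lower of 6, the libraries labelled SKBR3 1 higher and 1 lower of 6, and A375 batch 1 none of 5. FLAD1, the FAD synthase, was higher in A375 batch 2 (39.1 ± 0.734 to 46.2 ± 3.95 TPM, limma adjusted p = 0.0443) and lower in the libraries labelled SKBR3 (54.8 ± 2.04 to 42.8 ± 2.39 TPM, limma adjusted p = 0.00196). It was also lower in SK-Hep1 (25.7 ± 0.563 to 20.4 ± 1.49 TPM, limma adjusted p = 0.00779). Of 4 other enzymes that feed electrons to the flavoprotein, 3 of 3 tested rose in SK-Hep1 (37.3% of all genes), 1 rose and 1 fell of 3 in the libraries labelled SKBR3, and none of 2 was called in either batch of A375. Of 6 regulators of fatty acid oxidation genes, none was called in A375 (5 tested in batch 2, 3 in batch 1), 2 rose of 4 in SK-Hep1 and 1 of 5 in the libraries labelled SKBR3. PPARD, a nuclear receptor for fatty acids, rose in both, from 21.0 ± 0.611 to 47.0 ± 0.871 TPM in SK-Hep1 (limma adjusted p = 5.83e-06) and from 8.84 ± 0.589 to 15.8 ± 0.807 TPM in the libraries labelled SKBR3 (limma adjusted p = 0.000221).

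The letters ACTGAGA, a 7-base word picked in an earlier analysis of these data because its carriers were low in A375 batch 2, are in an annotated 3′ untranslated region of 13.91% of 19108 genes and of none of the 10 members.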

How the data were processed

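RNA sequencing libraries of siGCDH and siControl cells were used, 24 in 8 groups of 3, grouped and numbered by the sample labels. Per the labels' protocols, a Lexogen QuantSeq 3′ kit served for A375 batch 1, and poly(A) selection with a NEBNext directional kit for the rest. The values are TPM made by the authors. The submitters' processing notes name RSEM 1.3.1, STAR 2.7.0d, cutadapt 2.3 and hg38. Neither annotation version nor strand setting is given in the sources used here. RSEM assigns shared reads by estimation, and TPM holds no depth.

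Values were transformed to log2(TPM + 1) and fitted with limma 3.58.1 (eBayes with trend) in R 4.3.3, for genes whose mean was 1 TPM or more in the fitted libraries: 6 libraries within a line, 12 for a difference of effects and 9 for siControl levels. Two-sided p-values were adjusted over all genes of the fit by the Benjamini-Hochberg method. The ratio and the sum were tested with exact permutation tests in scipy 1.17.1. All 10 members were named. Of the up to 3 called genes of smallest adjusted p per list and line, only some are given. Members, lists and tests were chosen with earlier results of these data known. Likeness was computed over genes of at least 5 TPM. Promoters came from RefSeq (GRCh38.p14) and gene models from GENCODE. Alternatives were pseudocounts of 0.1 and 5, no filter or 5 TPM, quantile normalization, median scaling, eBayes without trend or robust, the replicate block, a joint fit and leaving out each library; removal of the large lincRNA rows was added after seeing the data. The fits were tested on simulated data.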

Additional observations from a re-analysis of the deposited data

Results flagged for a closer look

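The effect of siGCDH on 20 member values differed between lines of the full-length kit by limma's test of the difference itself, with an adjusted p under 0.05. No cause was tested, and the calls lost under other scalings are named in the report. For A375 batch 2 minus SK-Hep1, the difference of log2 effects was -0.80 for ETFA, -1.24 for ETFB, -0.77 for ACADM, -0.54 for ACADVL, -0.80 for ACADSB and 0.62 for ACAD9. For A375 batch 2 minus the libraries labelled SKBR3, it was -0.45 for ETFA, -0.76 for ETFB, -0.56 for ETFDH, -0.39 for ACADM, -1.14 for ACADS, -0.98 for ACADVL and -1.15 for ACADSB. For SK-Hep1 minus the libraries labelled SKBR3, it was 0.35 for ETFA, 0.48 for ETFB, 0.39 for ACADM, -0.83 for ACADS, -0.44 for ACADVL, -0.38 for ACAD9 and -0.33 for ACAD8. Of the 20 differences 16 were negative in this order of subtraction, and the count would change with another order. Lower calls also outnumbered higher ones over all tested genes of these comparisons. In the same order, their shares were 28.8% and 17.4% (46.2% in all), 36.8% and 14.5% (51.4%), and 25.0% and 14.5% (39.5%). The comparisons share libraries in pairs, and the differences for SK-Hep1 minus the libraries labelled SKBR3 follow from those of the other comparisons. The 20 values are therefore not separate results. ETFB was lower in 3 of 3 siGCDH libraries of A375 batch 2 and higher in 3 of 3 of SK-Hep1.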

How the results depend on the processing

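Of 2015 member values under other settings, 1854 kept their direction and side of the threshold, 70 lost a call, 27 gained one and 64 changed sign. Of the sign changes, 2 involved a called value, ETFB (-0.029, median scaling) and ACADS (-0.12, quantile) in the libraries labelled SKBR3; 62 were of values called in neither fit, 26 sign changes came from leaving out a library and 38 from other settings.

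The uncalled sign changes under quantile normalization, median scaling and lincRNA removal in A375 batch 1 were 0.060, 0.039 and 0.13 for ETFDH, 0.055, 0.028 and 0.13 for ACADM, 0.18, 0.11 and 0.21 for ACADVL, and 0.014, 0.010 and 0.060 for ACADSB. For batch 2 minus batch 1 the same settings gave -0.15, -0.15 and -0.22 for ACADM, -0.23, -0.19 and -0.26 for ACADVL, and -0.11, -0.14 and -0.20 for IVD; a pseudocount of 5 gave -0.059 for ACADS. Under quantile normalization and median scaling, ACAD8 was -0.089 and -0.13 in the libraries labelled SKBR3, IVD 0.046 and 0.051 in A375 batch 2 minus SK-Hep1, and ACAD8 0.067 and 0.085 in A375 batch 2 minus SKBR3. Median scaling gave IVD 0.057 there and 0.015 in SK-Hep1 minus SKBR3. For siControl levels of A375 batch 2 minus SK-Hep1, both settings gave -0.16 and -0.16 for ETFDH, -0.16 and -0.17 for ACAD9 and -0.14 and -0.14 for ACADSB. The ETFA to ETFB ratio in A375 batch 2 was 0.036 by group medians, and the sum in A375 batch 1 was 0.072 by median scaling.

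Leaving out 1 library gave ranges across 0 in A375 batch 1 for ETFDH (-0.38 to 0.20), ACAD9 (-0.17 to 0.71), IVD (-0.097 to 0.25) and ACADSB (-0.61 to 0.17), in A375 batch 2 for ACAD8 (-0.072 to 0.011) and the ratio (-0.12 to 0.043), and in SK-Hep1 for ACADSB (-0.19 to 0.019). For batch 2 minus batch 1 they were ACADM (-0.013 to 0.19), IVD (-0.14 to 0.20), ACADS (-0.13 to 0.40) and ACADVL (-0.00081 to 0.097). For siControl levels of A375 batch 2 minus SK-Hep1 they were ETFDH (-0.059 to 0.086), ACADSB (-0.10 to 0.18), ACAD9 (-0.054 to 0.051) and IVD (-0.078 to 0.038).

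The larger moves in the counts of members were as follows, and smaller moves are given only for leaving out 1 library. The joint fit of all 24 libraries gave 4 lower in A375 batch 1, 3 higher in SK-Hep1, 3 higher and 0 lower in the libraries labelled SKBR3, 0 higher for A375 batch 2 minus SK-Hep1, 2 lower for SK-Hep1 minus SKBR3, 1 higher for batch 2 minus batch 1 and 1 lower for the siControl level of A375 batch 2 minus SK-Hep1. Of all 16521 genes in that fit, 4134 were called lower in A375 batch 1 and 3725 higher in SK-Hep1. In the libraries labelled SKBR3, 4976 genes were called higher and 1617 lower. In the order given, the other comparisons had 1633 genes higher, 2065 lower, 2020 higher and 3780 lower. Median scaling and quantile normalization gave 2 and 3 higher in the libraries labelled SKBR3, 2 and 2 higher for A375 batch 2 minus SK-Hep1, 1 and 1 higher for A375 batch 2 minus SKBR3, and 2 and 2 lower for SK-Hep1 minus SKBR3. For A375 batch 2 minus SK-Hep1 they called 3326 and 3349 of 15548 genes higher, and for A375 batch 2 minus SKBR3 3739 and 3858 of 16820. For SK-Hep1 minus SKBR3 they called 3196 and 2874 of 16480 genes lower. In the libraries labelled SKBR3, 1 member was lower under quantile normalization, no filter or no trend, and without a trend 0 members were lower in A375 batch 1. Of all genes, these settings called 4309 of 16494, 2254 of 29909 and 2236 of 16494 lower in the libraries labelled SKBR3. Without a trend, 71 of 12868 genes were lower in A375 batch 1. Leaving out 1 library gave 1 to 2 members lower in the libraries labelled SKBR3, 0 to 1 higher for A375 batch 2 minus SKBR3, 2 to 5 lower for SK-Hep1 minus SKBR3 and 0 to 1 higher for batch 2 minus batch 1. It also gave 5 to 7 higher in the libraries labelled SKBR3, and 5 to 6 higher and 2 to 3 lower in SK-Hep1. For A375 batch 2 minus SKBR3 the range was 7 to 8 lower. For siControl levels of A375 batch 2 and of SK-Hep1 minus SKBR3 it was 6 to 7 lower each. Over all genes, leaving out 1 library gave 9148 to 9399 calls in either direction in the libraries labelled SKBR3. SK-Hep1 had 6983 to 7668. The range was 7884 to 8322 for A375 batch 2 minus SKBR3 and 5781 to 6168 for SK-Hep1 minus SKBR3. For siControl levels it was 11260 to 11407 for A375 batch 2 minus SKBR3 and 11761 to 11945 for SK-Hep1 minus SKBR3.

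Over all genes, A375 batch 1 had 1018 calls, and 85 without trend, 5573 in the joint fit, 488 without the lincRNA rows, 501 with median scaling, 590 with no filter, 516 with quantile normalization and 311 to 592 without 1 library. For batch 2 minus batch 1 the 772 calls became 225, 2377, 186, 182 and 222 under no trend, the joint fit, lincRNA removal, median scaling and quantile normalization, and 261 to 1190 without 1 library. The joint fit gave 2646 calls in A375 batch 2, 6593 in the libraries labelled SKBR3, 4208 and 5090 for A375 batch 2 minus SK-Hep1 and minus SKBR3, and 3162 for SK-Hep1 minus SKBR3.

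Same-numbered libraries did not deviate together over all tested genes (correlations -0.028 to 0.057), which gives no sign of a pairing by number. Such correlations cannot exclude one. With the replicate number as a block, calls over all genes were 357 in A375 batch 1 and 243 for batch 2 minus batch 1, and ACADS in the libraries labelled SKBR3 (limma adjusted p = 0.0552) and ACAD8 for SK-Hep1 minus SKBR3 (limma adjusted p = 0.0608) lost their calls. The cause of these changes was not tested. TPM holds no depth, so counting error could not be given, and low members in A375 batch 1 (ACADS, ACADSB, ETFDH, ACAD9) had wide intervals. Triplicate wells limit the p-values to spread within 1 experiment.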

Other observations

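Neighbouring genes that share exonic bases or a start region with a member in the gene models number 10, around 7 members, and are given as values without a test. THYN1 starts 125 bases from ACAD8 on the opposite strand and went from 79.5 ± 1.96 to 35.7 ± 5.40 TPM in A375 batch 2 (SD, n = 3) and from 55.0 ± 0.716 to 97.0 ± 1.09 TPM in SK-Hep1, where ACAD8 went from 16.8 ± 1.08 to 16.3 ± 0.623 TPM and from 20.7 ± 1.46 to 17.5 ± 1.22 TPM. RABGGTB, a subunit of Rab geranylgeranyl transferase that shares 157 exonic bases with ACADM on the same strand, went from 89.2 ± 4.21 to 42.5 ± 1.78 TPM in SK-Hep1 and from 203 ± 3.32 to 73.1 ± 7.08 TPM in the libraries labelled SKBR3, where ACADM rose. C4orf46 starts 130 bases from ETFDH on the opposite strand and shares 131 exonic bases with it. C4orf46 went from 10.7 ± 0.988 to 20.3 ± 0.405 TPM in SK-Hep1 and from 28.1 ± 1.62 to 25.3 ± 0.747 TPM in the libraries labelled SKBR3. DLG4, on the opposite strand, shares 85 exonic bases with ACADVL. It went from 4.46 ± 1.12 to 10.9 ± 0.754 TPM in the libraries labelled SKBR3 and from 24.8 ± 3.52 to 24.4 ± 2.36 TPM in SK-Hep1. IKZF5 starts 162 bases from ACADSB and went from 10.4 ± 0.762 to 12.3 ± 1.40 TPM in A375 batch 2, where ACADSB fell. These neighbours were chosen for display after their values were seen.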
